A study of Capra hircus with 198 samples.

Results

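The HOX genes of the goat are described here across 33 tissues that run from the frontal neocortex to the colon. The members are all features of the deposited count table whose symbol is HOX, a cluster letter from A to D and a number, which gave 37 genes of 39734 features. Cluster A has 11 members, cluster B 9, cluster C 9 and cluster D 8; HOXB4 and HOXD4 were not analysed here. Another 12 noncoding features named after a HOX gene were read beside them. The libraries come from lactating Murciano-Granadina goats (goats 2, 3 and 6) and dry ones (goats 54, 64 and 73), all adult females of this dairy breed, with 1 total RNA library per goat and tissue and 198 libraries in all. Every tissue thus has 6 libraries, 3 per state. The same 6 goats stand behind all tissues, so p-values measure the spread between these animals. Lactation cannot be told apart from any other difference between both sets of goats. The labels do not give the body site of the subcutaneous fat.

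HOX genes encode homeodomain transcription factors that give cells of the embryo their position along the axis from head to tail. They lie in 4 clusters, and a gene's place in its cluster follows the axis. Paralog group 1 lies at the end whose genes are used furthest forward, in the hindbrain, and group 13 at the end used furthest back, in the hindgut, genital tract and tips of the limbs. Forebrain and midbrain form without them. Much of what is known of single members comes from the mouse, and fibroblasts, smooth muscle and skin of the adult keep part of the embryonic pattern.

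Values are CPM, counts scaled to a library total of 1e6. Totals ran from 1.31 to 8.97 in units of 1e6 counts with a median of 4.63, and 3 counts correspond to 0.648 CPM in a library of median depth. HOX levels therefore rest on few counts in many tissues, and a value below 1 CPM is close to what the depth can show. Gene lengths were not used, so a level is read against the same gene's level in other tissues, and the order of genes within a tissue says nothing of their transcript numbers. In the RefSeq annotation HOXB3, HOXA3, HOXA4, HOXA5 and HOXA6 overlap a long noncoding gene and HOXB8 overlaps HOXB9, so the split of reads there is uncertain. In tissue as a whole, fewer cells of a kind and less RNA per cell cannot be told apart.

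Several libraries stood apart from the rest of their tissue in its defining markers. Of 86 entries of marker and tissue found in the table, some with the same gene, 71 had a rank in their tissue. By mean, 47 were highest in the tissue they were ranked in. Entries that mark a pair of tissues were ranked in the first alone. This leaves out ACTA1, SLC6A5 and CD3E, which were highest in the other tissue of their pair. Some tissues were not borne out by their listed markers as a whole. In the neurohypophysis RAX, VIM and CRYM ranked 16, 28 and 13 of the 33 tissues, and in the rhinencephalon RELN, CUX2 and SLC17A7 ranked 5, 10 and 4. AANAT ranked 22 in the pineal gland, where TPH1 and CRX ranked 1, and AMH ranked 14 in the ovary. Judged against the other libraries of their tissue, 13 libraries of 8 tissues were at odds with their labels. The libraries labelled ovary of dry goats 54, 64 and 73 had FOXL2, a factor of ovarian granulosa cells, at 0, 0.173 and 0.834 CPM, against 4.51 to 14.1 in the ovaries of the lactating goats. The libraries labelled adrenal medulla of goats 3, 64 and 73 had TH, which makes catecholamines, at 6.98 to 7.86 CPM, against 61.4 to 103 in the other goats. Neck skin of goats 3 and 6 held no KRT5 (175 to 379 CPM in the others), esophagus of goat 6 no KRT4 and abomasum of goat 2 no PGC. Duodenum of goat 2 held 0.253 CPM of FABP2, against 27 to 162 in the others. KRT6A in the rumen of goat 54 was 42.7 CPM, against 420 to 928, and SLC17A7 in the frontal neocortex of goat 2 was 0.217 CPM, against 4.54 to 19.4. Tests and levels in these tissues are also given without those libraries where that changed them, a step added once the data had been looked at. In the head, goat 64 had the highest HOX sum in 5 of 10 tissues (the 9 head tissues and the cerebellar hemisphere). Its frontal neocortex summed to 20.4 CPM over the 37 members, against 0 to 2.86 in the other goats. Its adenohypophysis summed to 24.5 CPM, against 0.523 to 8.31, and its rostral colliculus to 20.5 CPM, against 0.593 to 5.37. In the neurohypophysis its 6.10 CPM lay within the 0.482 to 13.9 CPM of the other goats. These libraries also held 1543, 2715 and 1201 CPM in features of any kind that were at 0 in all other goats, against at most 263, 311 and 253 CPM in any other library of those tissues.

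Few HOX genes were measured in front of the hindbrain, and the members present changed down the body. A mean of at least 1 CPM was reached in 166 of 1221 combinations of member and tissue, of which 145 also had 3 counts in at least 4 libraries. From the frontal neocortex to the cerebellar hemisphere no tissue had more than 1 member at this level. HOXA6 stood at 1.43 CPM in the rhinencephalon (1.04 without goat 64) and HOXC6 at 1.02 CPM in the frontal neocortex (0.139 without goat 64). The bridge of the brainstem had 5 members, none above paralog group 4, and the medulla oblongata had 11, none above group 6. The masseter, a jaw muscle, had none, and the mandibular lymph node and the thyroid had HOXB3 alone. Counts were highest in the lower trunk, with 20 members in the kidney medulla, 16 in the colon, 15 in the ovary and 13 in the adrenal cortex. Lung had 6, heart 1, diaphragm 5, reticulum 10, rumen 7, omasum 7, abomasum 1, liver 1, spleen 2 and duodenum 2. Without the libraries at odds with their labels the ovary had 9 members, from the lactating goats alone, the rumen 6, the neck skin 7 and the adrenal medulla 11.

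**Figure D1:**
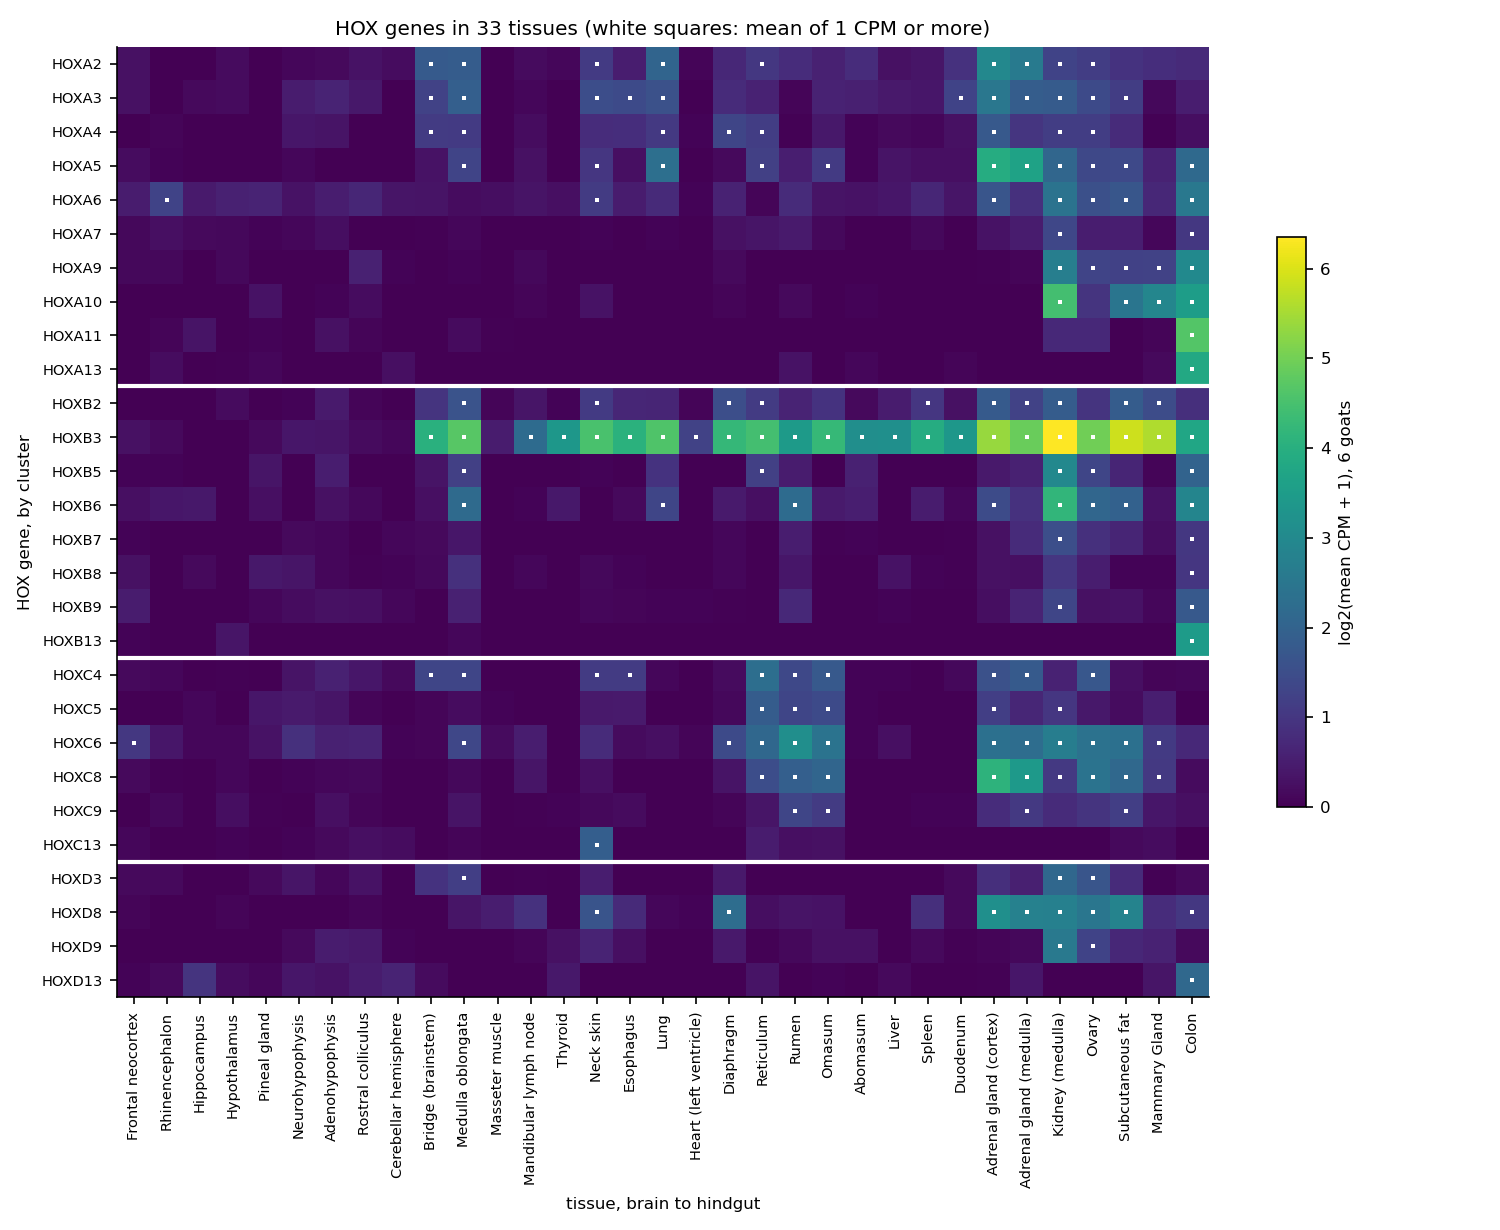
Mean level of the 28 HOX genes with a mean of 1 CPM or more in some tissue, in 33 tissues as log2(mean CPM + 1) over 6 goats, with genes by cluster from top to bottom and tissues from brain to hindgut, and white squares at a mean of 1 CPM or more. The 9 tissues from frontal neocortex to cerebellar hemisphere hold at most 1 square each, the bridge holds 5 and the kidney medulla 20.

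The number of tissues per gene differed between paralog groups. Of the 10 members of groups 1 to 4, 7 reached 1 CPM somewhere, in a median of 8.5 tissues over all 10 members and in 23 tissues together. All 11 members of groups 5 to 8 did so, in a median of 7 tissues and 16 together. Of the 16 members of groups 9 to 13, 10 did so, in a median of 1 tissue over all 16 members and in 9 tissues together. The other 9 members stayed below a mean of 1 CPM in every tissue. The clusters differed in extent. Cluster A ran from the rhinencephalon to the colon and cluster B from the bridge to the colon. Cluster C ran from the frontal neocortex to the mammary gland and cluster D from the medulla oblongata to the colon. The frontal start of cluster C was HOXC6 through goat 64 alone (mean 0.139 CPM without it). The next tissue with a C member was the bridge, with HOXC4. In the authors' deposited table of tau, a fraction that is 0 for a gene at one level in every tissue and 1 for a gene in a single one, 32 members had a value. Their median was 0.928, against 0.498 over 33323 features, and 7 members stood at 1 (HOXA11, HOXA13, HOXB13, HOXC10, HOXC13, HOXD10 and HOXD13), as did 5.63% of all features. The lowest tau of a member, 0.557, belonged to HOXB3.

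The first step from head to hindbrain was a step in HOXB3, which in the mouse helps to set the identity of hindbrain segments. Its level in the bridge ran from 7.86 to 20.3 CPM with a median of 15.7, against 0 to 0.403 CPM with a median of 0 in the rostral colliculus, a midbrain structure. The groups did not overlap, and the pooled level was 117-fold higher (log2 fold change 6.65, SE 0.50, edgeR adjusted p = 9.78e-09). HOXB3 was the single member tested in this pair, since edgeR's filter on low counts removed the others, and 3.64% of the 18225 features tested were called higher and 3.50% lower. A member that passes this filter through its high tissue alone had to differ. Without the filter HOXA2 and HOXA4 were called higher as well (3 members in all). In the bridge itself HOXA2, which patterns the second pharyngeal arch and the hindbrain, averaged 2.51 ± 1.43 CPM (SD, n = 6). HOXC4 averaged 1.51 ± 1.27 CPM, HOXA3 1.37 ± 1.44 and HOXA4 1.14 ± 0.78 CPM there.

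Further back, the medulla oblongata added members of groups 5 and 6. HOXB3 averaged 25.2 ± 6.38 CPM (12.9 to 31.4, n = 6), against 15.4 ± 4.47 CPM in the bridge, and this difference did not pass (log2 fold change 0.61, edgeR adjusted p = 0.294). HOXB6 averaged 3.57 ± 3.11 CPM. Its 6.03, 6.89 and 6.20 CPM in lactating goats 2, 3 and 6 lay above the 1.30, 1.01 and 0 CPM in dry goats 54, 64 and 73, a difference that edgeR did not call (adjusted p = 0.255) but that passed without its count filter (adjusted p = 0.00847) and with DESeq2 (adjusted p = 0.0237). HOXA3, HOXA2 and HOXB2 averaged 2.76, 2.61 and 2.08 CPM, and HOXC6, HOXA5, HOXB5 and HOXD3 between 1.28 and 1.55 CPM. Between medulla oblongata and bridge 2 members were tested and neither was called by edgeR (0.272% of 18384 features called higher and 0.539% lower) or DESeq2, with 1 at an unadjusted p under 0.05.

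**Figure D2:**
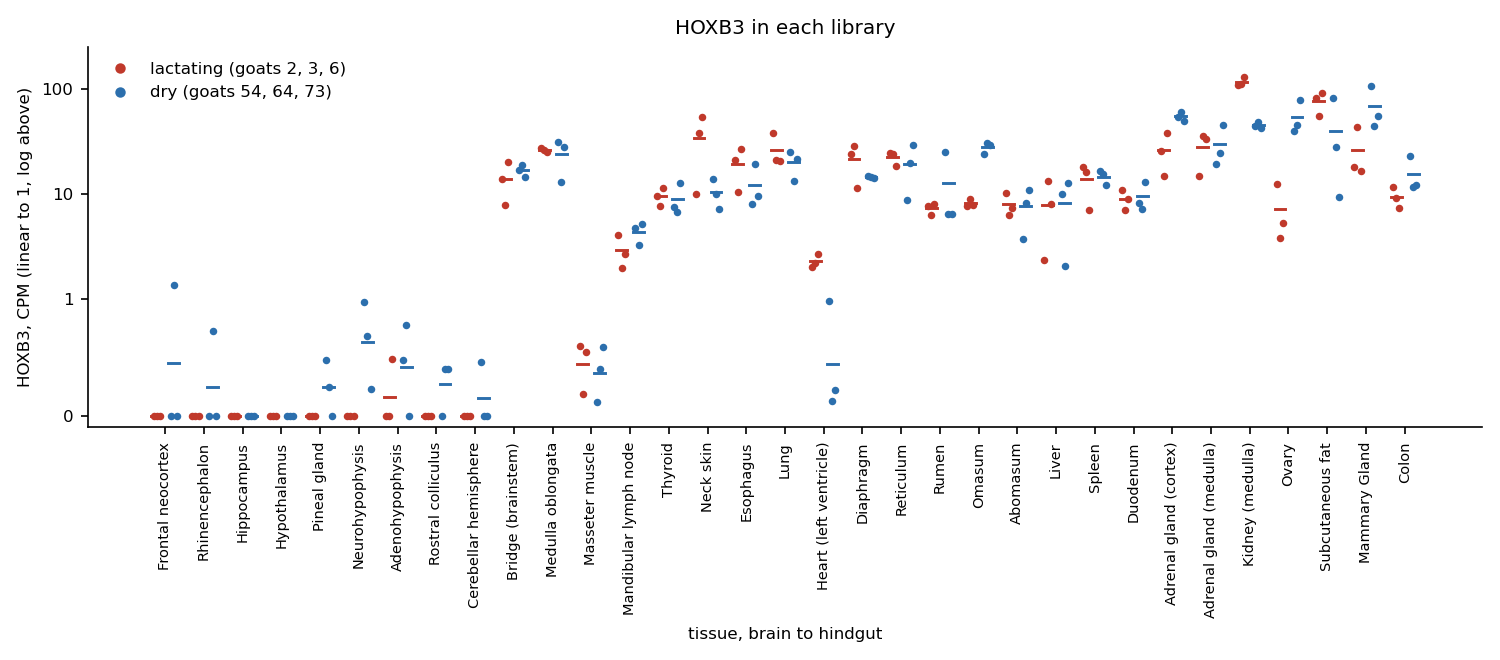
HOXB3 in each of the 198 libraries, in CPM on an axis that is linear to 1 and logarithmic above, with tissues from brain to hindgut, lactating goats left of dry goats, and bars at the mean of 3 goats. The bridge ran from 7.86 to 20.3 CPM, against at most 0.403 CPM in the rostral colliculus, and the kidney medulla reached 129 CPM.

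Set against the head as a whole, most measured members were higher in the trunk. Each goat's mean log2 CPM over 16 trunk tissues was compared with its mean over 9 head tissues, the 8 brain regions and glands in front of the cerebellum plus the masseter. Of 28 members that passed the level filter, limma called 23 higher and 0 lower, beside 24.8% of 31306 features called higher. Few members reach 1 CPM in the head, so nearly all passed that filter through tissues outside it and had to be higher there. The median log2 difference was 0.56 for these members and −0.09 for all features. HOXB3 had mean levels of 20.6 to 27 CPM per goat in the trunk, against 0.0208 to 0.510 CPM in the head (log2 difference 4.79, SE 0.17). HOXA5, which the mouse needs for lung and airway formation, ran from 1.58 to 5.84 CPM per goat in the trunk, against 0 to 0.126 in the head (1.63, SE 0.10). The 6 goats did not overlap for either gene. HOXD8 (1.37, SE 0.10), HOXA2 (1.34, SE 0.15) and HOXC8, which patterns thoracic vertebrae in the mouse (1.34, SE 0.11), followed. HOXA6, HOXB8, HOXB9, HOXC13 and HOXD13 were not called. The count was 26 without goat 64, 22 with the goat as a block and 24 without the 8 tissues that hold a library at odds with its label. A mean over many tissues makes the change of a gene used in a single tissue look small, as for HOXA11 (0.33), so these values are no measure of its step between neighbours.

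Skeletal muscle gave the same gene at 2 places on the axis. HOXB3 in the diaphragm, the breathing muscle, ran from 11.4 to 28.3 CPM with a median of 14.6, against 0.120 to 0.594 CPM with a median of 0.472 in the masseter. HOXD8 ran from 2.58 to 4.88 CPM in the diaphragm, against 0 to 1.46 CPM in the masseter. For both genes every diaphragm lay above every masseter. Both members are near the floor in the masseter and passed the filter through the diaphragm. Both of the 2 members tested were called higher, beside 1.07% of 14619 features higher and 1.17% lower (HOXB3 log2 fold change 4.97, SE 0.35, edgeR adjusted p = 7.52e-08; HOXD8 2.89, SE 0.54, edgeR adjusted p = 0.00584). The muscle genes CKM and ACTA1 were high in all 12 libraries, with CKM at 677 to 2007 CPM in the diaphragm and at 1481 to 3277 in the masseter. HOXB2, HOXC6 and HOXA4 averaged 1.89, 1.68 and 1.5 CPM in the diaphragm.

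HOXB3 also separated other organs of the trunk from their partners in the neck. It ran from 13.4 to 37.8 CPM in the lung with a median of 21.2, against 6.67 to 12.8 CPM with a median of 8.55 in the thyroid (log2 fold change 1.12, SE 0.26, edgeR adjusted p = 0.00257). It was the single member tested, and 14.4% of 17335 features were called higher and 13.7% lower in this pair, so a call of this kind was common. Spleen ran from 7.01 to 18 CPM, against 1.96 to 5.11 CPM in the mandibular lymph node (1.75, SE 0.34, edgeR adjusted p = 0.00612), as the single member tested, beside 2.24% of 17667 features called higher and 0.979% lower. No library overlapped in either pair. Lung held HOXA5 at 4.03 ± 1.83 CPM (1.94 to 6.09) and HOXA2 at 3.12 ± 2.02 CPM. The left ventricle was the lowest trunk tissue for HOXB3, with 1.99, 2.21 and 2.65 CPM in lactating goats and 0.983, 0.123 and 0.223 CPM in dry goats.

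Along the stomach compartments the C cluster came and went. The reticulum, rumen and omasum, forestomachs with a keratinised lining, all held HOXC4, HOXC5, HOXC6 and HOXC8 at 1 CPM or more, and the rumen and omasum HOXC9 as well, the rumen through 6.66 CPM in goat 54 (mean 0.491 CPM without it). The abomasum, the glandular stomach, and the duodenum held no C member at this level. HOXC6 averaged 3.33 ± 3.0 CPM in the reticulum, 7.78 ± 1.93 in the rumen, 4.37 ± 2.61 in the omasum and 0.0379 ± 0.0927 in the abomasum (n = 6 each). HOXC8 averaged 1.82 ± 1.78, 2.79 ± 1.48 and 3.17 ± 1.55 CPM in reticulum, rumen and omasum. Spread among goats was wide, with HOXC6 at 0 CPM in the reticulum of goats 3 and 73 and at 7.47 CPM in that of goat 2. The esophagus held HOXC4 at 1.16 ± 1.04 CPM beside HOXB3 at 15.8 ± 7.59 CPM and HOXA3 at 1.69 ± 1.01 CPM.

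Between neighbouring compartments few members passed. No member was called between reticulum and esophagus (2 tested, 1 at an unadjusted p under 0.05, 2.02% of 16663 features called higher and 1.37% lower), rumen and reticulum (4 tested, 2 at an unadjusted p under 0.05) or omasum and rumen (3 tested, 1 at an unadjusted p under 0.05), by edgeR or DESeq2. Of 17151 features 0.0117% were called higher and 0.0816% lower in the rumen than in the reticulum. Of 16922 features 0.0946% were called higher and 0.0414% lower in the omasum than in the rumen. HOXB3 in the rumen stood at 25.2 CPM in goat 54 and at 6.23 to 7.95 CPM in the other 5 goats, against 8.66 to 29.4 CPM in the reticulum. Rumen of goat 54 also had MYH11, a smooth muscle gene, at 1402 CPM, against 315 to 742 in the others, and its part in the result was not tested. Without that library HOXB3 was called lower in the rumen than in the reticulum (log2 fold change −1.48, SE 0.27, edgeR adjusted p = 0.0387).

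Past the omasum, HOXB3 ran from 3.72 to 10.9 CPM in the abomasum, against 7.59 to 30.3 CPM in the omasum, where it split by state. It was called lower in the abomasum (log2 fold change −1.35, SE 0.44, edgeR adjusted p = 0.048), beside 8.70% of 16388 features lower and 6.82% higher. This call was lost with the goat as a block (adjusted p = 0.118), with the deposited offsets (adjusted p = 0.0546) and without goat 3, 6, 54, 64 or 73. Without the abomasum of goat 2, which held no PGC, the call stayed (edgeR adjusted p = 0.0388), beside 10.8% of 17366 features lower and 9.66% higher. HOXC6 was called lower too, with 0 CPM in each of the other 5 abomasum libraries (edgeR adjusted p = 4.18e-04). It passed the filter through the omasum alone and so had to differ. HOXB3 averaged 9.22 ± 2.25 CPM in the duodenum and 7.78 ± 2.64 CPM in the abomasum. It was the single member tested there and was called by neither edgeR nor DESeq2 (log2 fold change −0.00, SE 0.29; 0.0302% of 16576 features called higher and 0.00603% lower).

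**Figure D3:**
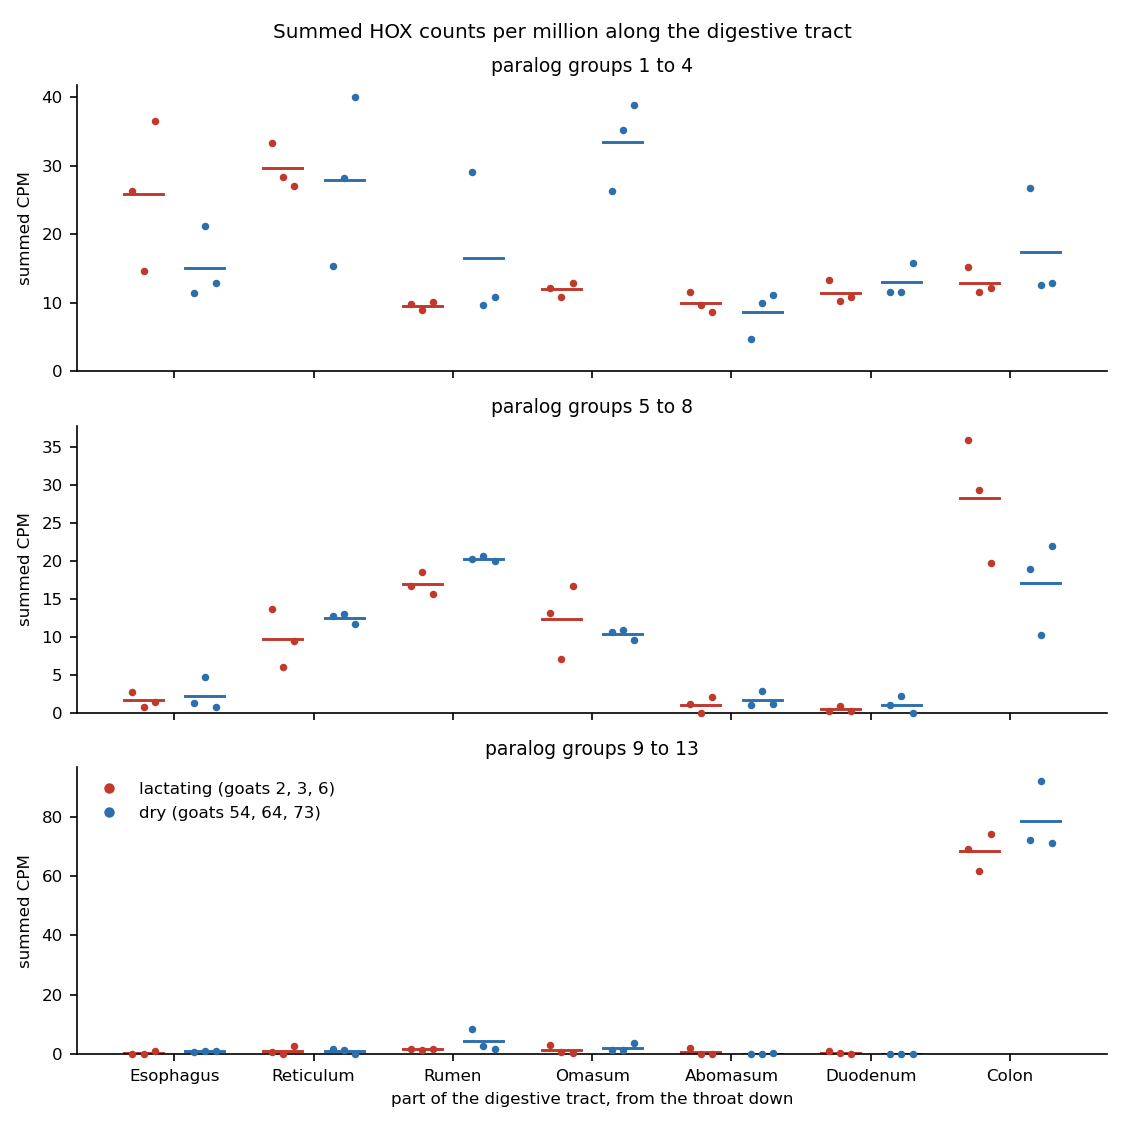
Summed CPM of the members of paralog groups 1 to 4, 5 to 8 and 9 to 13 in each library of 7 parts of the digestive tract, lactating goats left of dry goats, with bars at the mean of 3 goats. Groups 9 to 13 stood at 61.8 to 92.0 CPM in the colon and at 0 to 1.01 CPM in the duodenum.

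Members of the posterior groups set the colon apart from the duodenum. Groups 9 to 13 summed to 73.4 ± 10.1 CPM in the colon and to 0.27 ± 0.399 CPM in the duodenum (n = 6 each). HOXA11 stood at 27, 17.2 and 27.9 CPM in the colon of lactating goats 2, 3 and 6 and at 34.2, 18.7 and 19.7 CPM in that of dry goats 54, 64 and 73, against 0 in all 6 duodenum libraries. It was thus at least 217-fold higher, counted against 3 counts over the duodenum group. HOXA10, a gene of uterus and hind limb development, stood at 9.04 to 11.3 CPM in the colon (at least 96.4-fold) and HOXA9 at 2.80 to 10.5 CPM (at least 64.5-fold), both at 0 in every duodenum. HOXB13, known from prostate and hindgut, ran from 6.46 to 16.8 CPM, against 0 (at least 92.2-fold).

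HOXA13, which the mouse needs for hindgut and limb tips, ran from 9.58 to 21.9 CPM in the colon, against 0 to 0.417 CPM in the duodenum, a pooled ratio of 183 with a 95% counting interval from 50.4 to 1518. HOXB6 ran from 2.86 to 14.7 CPM, against 0 to 0.253 CPM, a ratio of 84.0 (22.9 to 699). Colon and duodenum did not overlap for any of these 6 members. Of 7 members tested all 6 were called higher (edgeR adjusted p from 1.3e-06 for HOXA11 to 8.4e-05 for HOXA9), beside 2.61% of 17876 features higher and 2.25% lower. All 6 are near 0 in the duodenum, so they passed the filter through the colon alone. HOXB3 was not called, at 12.5 ± 5.41 CPM in the colon and 9.22 ± 2.25 CPM in the duodenum (log2 fold change 0.40, adjusted p = 0.581). Without the duodenum of goat 2 the count was 8, with HOXA5 and HOXA6 added. HOXD13, at the end of cluster D, reached a mean of 1 CPM in the colon alone, there through the dry goats. It was also counted elsewhere, with a mean of 0.941 CPM in the hippocampus and of 0.891 CPM over the head tissues of goat 54. HOXD12 was seen in the colon of dry goats alone. No C member reached 1 CPM in the colon.

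In the abdomen, kidney and adrenal gland, both formed beside the trunk axis, shared many members and differed in some. Kidney medulla and adrenal cortex each held 6 members of groups 1 to 4 at 1 CPM or more. Of groups 5 to 8 they held 10 and 7, and of groups 9 to 13 they held 4 and 0. In the kidney medulla HOXA10 ran from 6.83 to 35.3 CPM with a median of 20.7, against 0 in all 6 adrenal cortex libraries (at least 214-fold higher). HOXA9 ran from 3.57 to 8.35 CPM, against 0 to 0.178 CPM, a ratio of 169 with an interval from 29.8 to 6700. HOXD9 ran from 2.32 to 7.98 CPM, against 0 to 0.215 CPM, a ratio of 78.1 (21.2 to 651). HOXB5 and HOXB6 were 19.2-fold and 9.62-fold higher in the kidney. None of these 5 genes overlapped between the organs. HOXA10, HOXA9 and HOXD9 are near 0 in the adrenal cortex, so they passed the filter through the kidney alone.

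The adrenal cortex was higher in other members. HOXC8 ran from 0 to 2.38 CPM in the kidney medulla, against 9.68 to 23.9 CPM in the adrenal cortex, and was 15.2-fold lower in the kidney (log2 fold change −3.96, SE 0.57, edgeR adjusted p = 1.14e-04). HOXC8 passed the filter through the cortex. HOXA2 was 4.70-fold lower and HOXA5 4.46-fold lower in the kidney, with some overlap between libraries. HOXA5 in the cortex reached 36.2 CPM in goat 2 and 17.9 in goat 3, against 6.21 to 10.5 in the other goats. Of 14 members tested edgeR called 5 higher and 3 lower in the kidney, beside 13.6% of 17665 features higher and 13.7% lower, so calls in either direction were common between these organs. HOXB3 averaged 80.7 ± 39.5 CPM in the kidney medulla and 40.3 ± 17.6 CPM in the adrenal cortex and did not pass (adjusted p = 0.0757). HOXD8, HOXC6, HOXB2, HOXA3 and HOXA6 did not pass either.

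Within the adrenal gland no member was called between zones. Of 9 members tested none was called between medulla and cortex by edgeR or DESeq2, none had an unadjusted p under 0.05, and edgeR called 0% of 17235 features in either direction. HOXB3 averaged 28.8 ± 11.3 CPM in the medulla and 40.3 ± 17.6 in the cortex, HOXC8 9.63 ± 5.65 and 16.2 ± 5.98, and HOXD8 5.90 ± 1.4 and 8.0 ± 2.42 CPM. The chromaffin cells of the adrenal medulla derive from the neural crest, but 3 of the 6 medulla libraries held TH near the cortex level of 0.860 to 19.6 CPM. Without those 3 libraries none of 10 members tested was called, while 130 features were called higher and 8 lower.

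The ovary held 15 members at a mean of 1 CPM, over libraries of which the 3 from dry goats held little FOXL2. Against the adrenal cortex edgeR called 4 of 8 members lower and none higher, beside 16.7% of 17617 features lower and 13.2% higher. With the goat as a block it called 6 of the 8 lower. HOXA5 ran from 0.239 to 3.98 CPM in the ovary, against 6.21 to 36.2 CPM in the cortex (log2 fold change −3.35, SE 0.63, adjusted p = 0.00128). HOXA2 ran from 0 to 2.42 CPM, against 3.20 to 10.4 (−2.69, SE 0.54, adjusted p = 0.00207). HOXC8 and HOXA3 were called as well (−2.28 and −1.71), HOXC8 with DESeq2 at adjusted p = 0.0639. HOXC8 lost its call without goat 3, 6, 54, 64 or 73 and HOXA3 without goat 3 or 6. With the ovaries of the lactating goats alone, which held FOXL2, 6 of 10 members were lower, these 4 and HOXB3 (−3.0, SE 0.52, edgeR adjusted p = 6.13e-04) and HOXB2 (−3.37, SE 0.87, edgeR adjusted p = 0.00886), beside 18.3% of 20040 features lower and 13.2% higher.

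Skin, mammary gland and fat were among the 23 tissues with HOXB3 at 1 CPM or more, and they differed in some posterior members. HOXC13, which hair follicles and nails require in the mouse and in people, reached 1 CPM in neck skin alone. It stood at 4.63, 0 and 0 CPM in lactating goats 2, 3 and 6 and at 3.39, 4.04 and 4.31 CPM in dry goats 54, 64 and 73. The 2 skins at 0 are those without KRT5, a keratin of the basal epidermis. The mammary gland held HOXA10 at 2.02, 5.46 and 2.88 CPM in lactating and 13.7, 10.2 and 4.98 CPM in dry goats, and HOXA9 at 1.39 ± 1.13 CPM. Between mammary gland and neck skin the single member tested, HOXB3, did not pass (47.3 ± 32.8 CPM in the mammary gland and 22.2 ± 19.3 CPM in neck skin, adjusted p = 0.381), and neither edgeR nor DESeq2 called a member, with 0 at an unadjusted p under 0.05 and 1.70% of 17564 features called higher and 1.26% lower. Without the neck skins of goats 3 and 6 edgeR called all 3 members tested, beside 2.17% of 19202 features higher and 3.75% lower. HOXA10 (log2 fold change 4.21, SE 0.91, adjusted p = 0.0114) and HOXB3 (2.24, SE 0.48, adjusted p = 0.0105) were higher in the mammary gland and HOXC13 (−4.32, SE 0.85, adjusted p = 0.00597) was lower. HOXC13 reached 1 CPM in no tissue but neck skin, and HOXA10 did not reach it in neck skin. Each thus passed the filter through its higher tissue and had to differ. The 2 skins left out were also those with HOXC13 at 0 CPM.

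Subcutaneous fat held 12 members, among them HOXB3 at 57.8 ± 33.1 CPM, HOXD8 at 6.12 ± 1.78 and HOXC6 at 4.04 ± 2.04 CPM. Group 9 and 10 members differed from goat to goat. HOXA10 stood at 8.25, 0 and 18.8 CPM in lactating goats 2, 3 and 6 and at 0.219, 0 and 0 CPM in dry goats 54, 64 and 73. HOXA9 stood at 4.58, 0 and 3.42 CPM in the lactating goats and at 0 in all dry ones. Goats 2 and 6 were thus high in both genes and the other 4 low. ADIPOQ, which fat cells secrete, was at 205 to 1469 CPM in all 6 fat libraries.

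Lactating and dry goats differed in HOX genes in 5 of the 23 tissues where a member could be tested. Of 97 tests of a member in a tissue, edgeR called 11, of which 5 were higher and 6 lower in lactation, beside 1.90% of 578253 tests over all features and tissues. Member tests were spread unevenly, so this pooled share is no matched baseline. The kidney medulla had 14 (15.1% of its features called), the colon 12 (2.59%), the adrenal cortex 10 (3.43%) and the ovary 7 (11.7%). The adrenal medulla had 8 and the subcutaneous fat 6, with no feature called in either. Without the libraries at odds with their labels, and so without the ovary, 5 calls were left, 2 higher and 3 lower. The number at an unadjusted p under 0.05 was 22, and 12.4% of all tests had such a p. Library totals alone put the median feature of the kidney medulla 0.39 log2 units higher in lactation, 0.30 in the ovary and 0.26 in the colon. The fitted changes are relative to that shift, so they are smaller than the ratio of the CPM values in these tissues when higher and larger when lower.

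In the kidney medulla HOXB3 stood at 109, 111 and 129 CPM in lactating goats 2, 3 and 6 and at 44.5, 48.8 and 42.5 CPM in dry goats 54, 64 and 73. Every lactating goat lay above every dry goat, and the change was called (log2 fold change 1.0, SE 0.19, edgeR adjusted p = 0.00333) with each goat left out in turn. HOXB6 stood at 24.8, 18 and 30.9 CPM in lactating and 9.56, 9.75 and 8.92 CPM in dry goats (1.02, SE 0.28, adjusted p = 0.0305), a call kept without goat 3 alone. These calls stood beside 15.1% of 18413 features called in either direction in the kidney. SLC12A1, the salt transporter of the thick ascending limb, stood at 207, 570 and 564 CPM in lactating and 47.0, 25.9 and 46.2 CPM in dry goats, and KRT8, an epithelial keratin, at 25.6 to 35.7 and 5.53 to 7.61 CPM. Their part in the result was not tested.

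HOXB3 went the other way in the omasum and adrenal cortex. In the omasum it stood at 7.59, 8.98 and 7.76 CPM in lactating and 24.2, 30.3 and 29.2 CPM in dry goats (log2 fold change −1.97, SE 0.27, edgeR adjusted p = 0.0282, beside 0.173% of 17367 features in either direction), a call that did not hold without goat 2, 54, 64 or 73. In the adrenal cortex it stood at 25.4, 14.9 and 38.1 CPM in lactating and 53.5, 60.3 and 49.9 CPM in dry goats (−1.28, SE 0.27, edgeR adjusted p = 0.0262, beside 3.43% of 17911 features), a call kept without goat 6 alone. Groups did not overlap in either tissue. In the omasum the epithelial keratin KRT6A stood at 1366, 1469 and 623 CPM in lactating and at 523, 580 and 333 CPM in dry goats, and its part in the result was not tested. A test of the difference itself was added after the data were seen, for tissues chosen for their opposite calls. Its values thus restate that pattern with an error. It put the lactation effect on HOXB3 higher in the kidney medulla than in the omasum by 2.95 log2 units (SE 0.30, edgeR adjusted p = 4.21e-05). The effect was also higher than in the adrenal cortex, by 2.26 (SE 0.34, edgeR adjusted p = 6.30e-04). Of all features, 955 of 21074 passed against the omasum and 1090 of 21139 against the adrenal cortex.

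In the colon the last gene of cluster D split by state. HOXD13, which with HOXA13 shapes the limb tips and the hindgut outlet in the mouse, stood at 0.237, 0 and 0 CPM in lactating goats 2, 3 and 6 and at 3.01, 9.90 and 7.62 CPM in dry goats 54, 64 and 73. The pooled counts were 1 and 102, a ratio of 0.0110 with a 95% interval from 0.000276 to 0.0626. The call (log2 fold change −6.28, SE 0.99, edgeR adjusted p = 0.00573, beside 2.59% of 18574 features in either direction) was kept with each goat left out in turn. Its neighbour HOXD12 followed the same split at 0, 0 and 0 CPM in lactating and 2.15, 1.71 and 0.423 CPM in dry goats, too low to be tested. HOXA13 did not, at 13.7, 9.85 and 12.8 CPM in lactating and 9.58, 21.9 and 12.1 CPM in dry goats. Other genes moved between the same libraries. PTPRC, of blood cells, stood at 23.9, 33.0 and 27.3 CPM in lactating and 5.81, 7.43 and 7.83 CPM in dry goats, and CDX2, of gut epithelium, at 11.4, 7.63 and 7.56 and at 3.45, 4.95 and 5.08 CPM. Their part in the result was not tested.

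The ovary held 6 of the 11 calls, beside 11.7% of 18083 features in either direction. HOXB3 stood at 12.3, 3.82 and 5.25 CPM in lactating goats and at 39.6, 45.7 and 77.8 CPM in the libraries labelled ovary of dry goats (log2 fold change −3.28, SE 0.48, edgeR adjusted p = 0.00579), a call lost without goat 6. HOXB6 stood at 0, 0.239 and 0 CPM in lactating and 6.48, 4.15 and 8.96 CPM in dry goats, a ratio of 0.0121 with an interval from 0.000303 to 0.0693. HOXC8 had the opposite pattern, at 13.8, 6.68 and 5.66 CPM in lactating and 0, 0.173 and 0 CPM in dry goats, a ratio of 115 (20.3 to 4592). HOXB6 and HOXC8 kept their calls with each goat left out in turn. HOXC6 (log2 fold change 3.97) and HOXD8 (3.36) were higher and HOXA3 (−2.44) lower in lactation, and each lost its call without some goats, HOXA3 and HOXC6 in 5 of 6 cases.

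Other markers split the same 6 ovary libraries. FOXL2 stood at 4.51, 14.1 and 6.12 CPM in lactating goats and was near 0 in dry ones, as given above. KRT8 stood at 0, 0.477 and 0.437 CPM in lactating and at 48.2, 54.8 and 5.0 CPM in dry goats, and VIM at 65.0, 82.6 and 87.4 and at 25.9, 20.4 and 17.1 CPM. Lactation and the tissue taken cannot be told apart in these libraries.

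**Figure D4:**
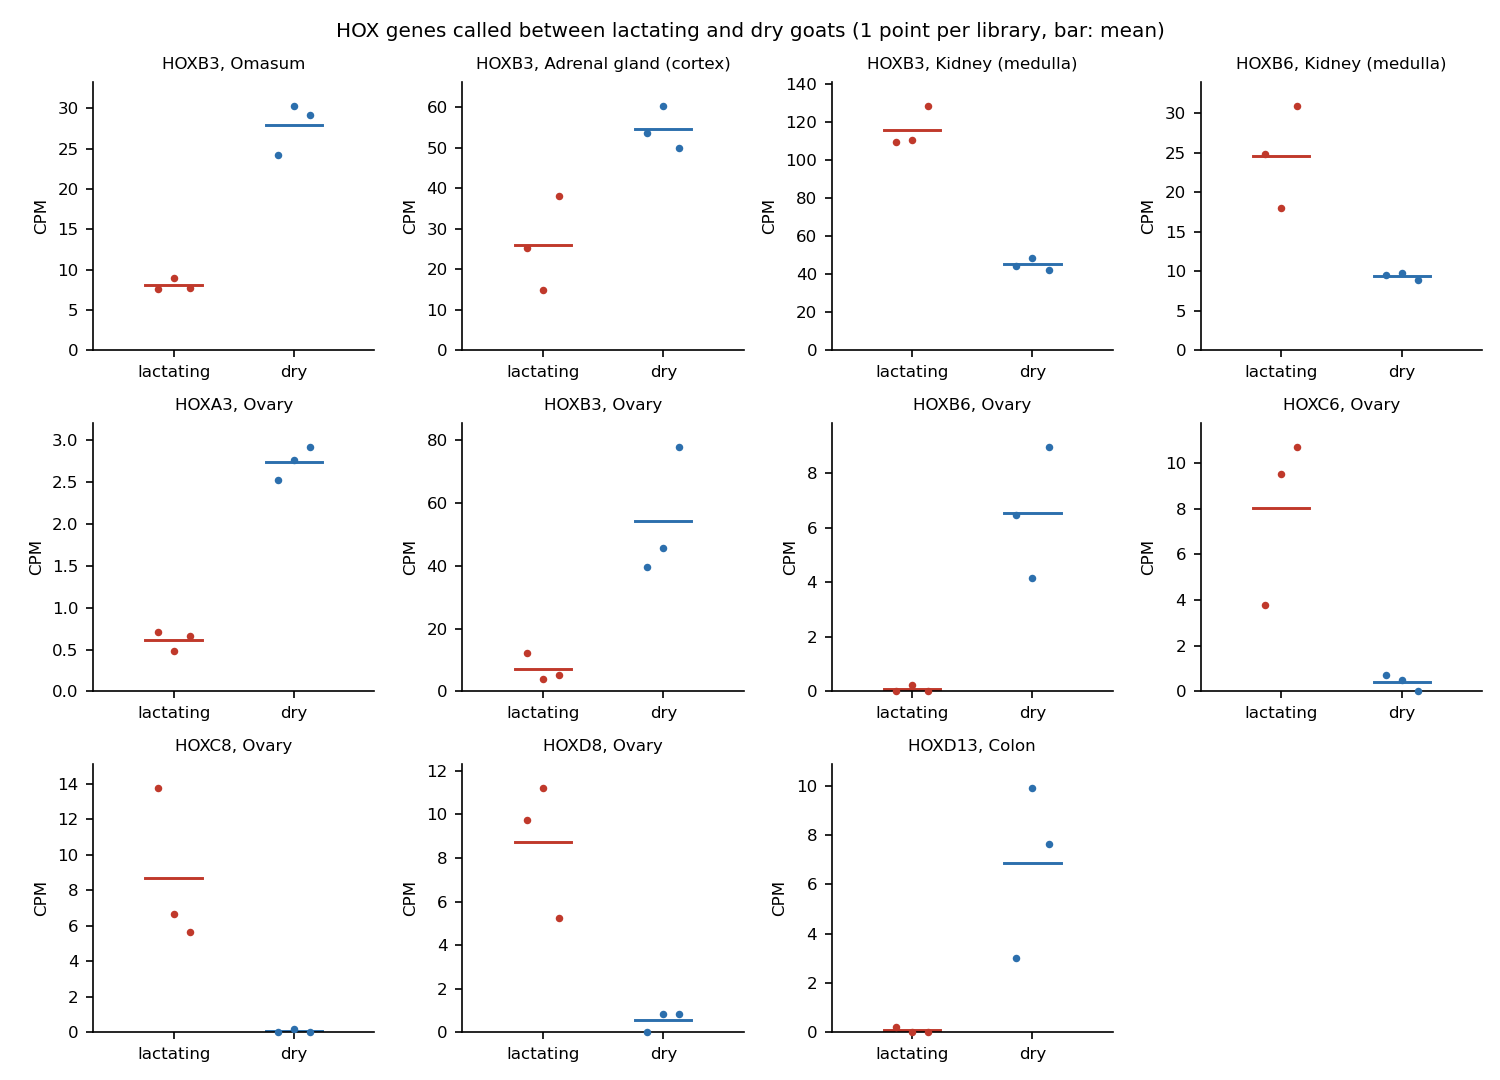
The 11 HOX genes and tissues called between lactating and dry goats, in CPM on axes that start at 0, with lactating goats left of dry goats, 1 point per library and bars at the mean of 3 goats. The groups do not overlap in any panel, and HOXD13 in the colon stood at 0 to 0.237 CPM in lactating and 3.01 to 9.90 CPM in dry goats.

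Over all tissues no member passed between states. In each goat's mean over 33 tissues limma called 0 of 28 members, beside 8.74% of 31306 features called higher and 1.92% lower, and 2 members had an unadjusted p under 0.05 (HOXC13 at −0.17 log2 units and HOXA7 at −0.18). Counted without a test, lactating and dry libraries did not overlap in 35 of the 166 combinations at 1 CPM or more, 20 with lactating goats above and 15 below. Over all features lactating goats lay above in 12% of combinations and below in 7.22%.

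All 12 noncoding features named after HOX genes were measured, and 11 reached 1 CPM in some tissue. Each is described by its own levels, since lengths differ and were not used. HOXA9-AS1, annotated antisense to HOXA9, peaked in the kidney medulla at 278 CPM, and HOXB7-AS1 at 44.6 CPM. HOXB9-AS1 peaked in the colon at 190 CPM, HOXA10-AS1 at 70.1 CPM and HOXA11-DT1 at 3.17 CPM. HOXC8-OT1 peaked in the adrenal cortex at 60.8 CPM and HOXD3-IT1 in the kidney medulla at 3.19 CPM, while HOXD8-OT1 stayed below 1 CPM. HOXB2-AS1 reached 1 CPM in 23 tissues. Other peaks lay in tissues with libraries at odds with their labels. HOXA3-AS1 averaged 6.53 CPM in the esophagus and 2.57 CPM there without goat 6. HOXA11-AS1 averaged 33.9 CPM in the ovary and 2.12 CPM in the ovaries of the lactating goats alone, and HOXB2-AS1 74.1 and 17.9 CPM. HOXC8-AS1 averaged 31.3 CPM in the rumen and 24.9 CPM without goat 54. Whether the counting used strand is not stated, so reads of a gene and of the feature on its other strand cannot be told apart with certainty. Spearman's rho between a feature and its gene over 33 tissue means ran from 0.416 for HOXA11-AS1 to 0.879 for HOXB2-AS1, as a description of tissues that share goats and depth. Several features had a higher rho with another gene of their cluster. HOXB2-AS1 had 0.947 with HOXB3, HOXA9-AS1 0.706 with HOXA10 (0.436 with HOXA9) and HOXB9-AS1 0.788 with HOXB6 (0.448 with HOXB9).

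**Figure D5:**
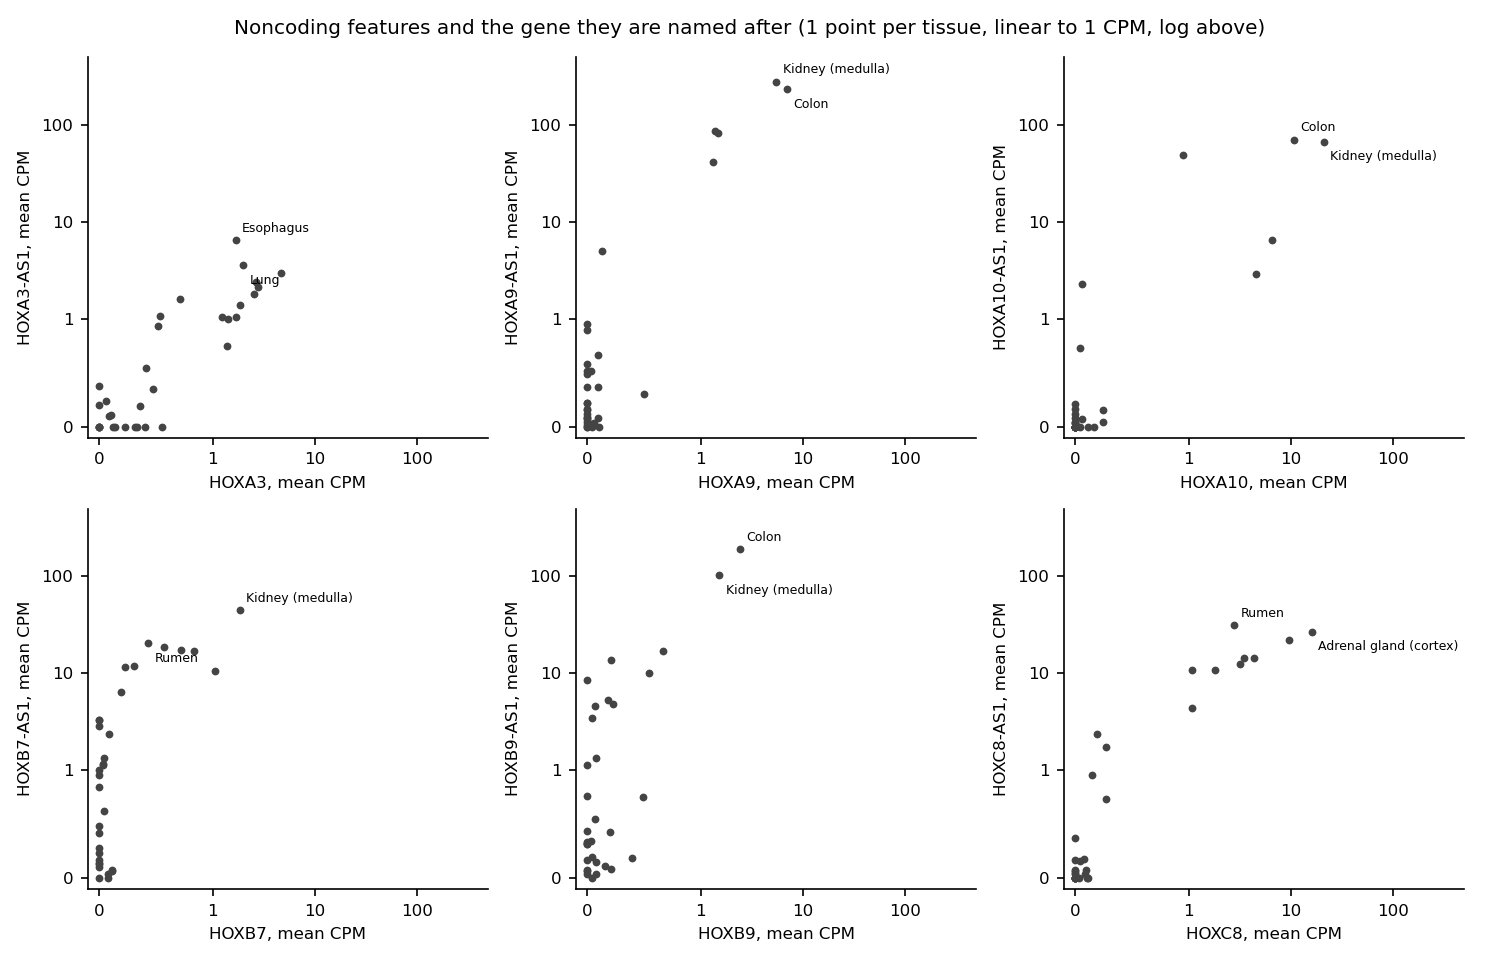
Mean CPM over 6 goats of 6 antisense features (vertical axis) and of the gene each is named after (horizontal axis), 1 point per tissue, on axes linear to 1 CPM and logarithmic above. HOXA9-AS1 was highest in the kidney medulla at 278 CPM and HOXB9-AS1 in the colon at 190 CPM.

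Noncoding features were called in several of the tissue pairs, with and without a HOX gene called. HOXB2-AS1 was called higher by edgeR in the bridge than in the rostral colliculus (log2 fold change 6.12), in the diaphragm than in the masseter (6.29) and in the medulla oblongata than in the bridge (1.01, adjusted p = 0.0142, a call lost without goat 3 or 73). Between medulla oblongata and bridge no HOX gene was called. HOXC8-AS1 stood at 0 in all esophagus libraries and was at least 96.9-fold higher in the reticulum, and at 0.0454 CPM in the abomasum against 12.4 CPM in the omasum. In the colon 6 of 7 noncoding features tested were called higher than in the duodenum, with HOXA10-AS1 at least 631-fold higher. Of all 17876 features in that pair 2.61% were called higher and 2.25% lower. A feature at or near 0 in the lower tissue, as HOXA10-AS1 and HOXC8-AS1 were, passed the count filter through the higher tissue and had to differ. HOXA9-AS1 averaged 86.0 ± 28.3 CPM in the mammary gland and 0.895 ± 0.631 CPM in neck skin (log2 fold change 6.56, SE 0.50, edgeR adjusted p = 9.27e-06).

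Between states 8 noncoding tests of 83 were called higher and 3 lower in lactation, beside 1.90% of all tests. Of these 11 calls 4 were in the ovary, whose dry libraries are at odds with their label, and 5 in the kidney medulla, where 15.1% of features were called. HOXB7-AS1 in the medulla oblongata stood at 29.7, 23.4 and 17.7 CPM in lactating goats 2, 3 and 6 and at 0 in all dry goats, at least 124-fold higher (edgeR adjusted p = 7.1e-05, beside 0.123% of 18719 features in either direction), with each goat left out in turn. The gene HOXB7 was below 1 CPM in this tissue, and HOXB6 beside it in the cluster split the same way, with a call by DESeq2 and none by edgeR.

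Genes that act with or upstream of HOX genes were read from lists chosen by their known roles. Of the 9 HOX cofactors, PBX, MEIS and PKNOX proteins that bind DNA with HOX proteins, edgeR called 2 of 6 lower in the bridge than in the rostral colliculus (PBX3 −2.82 and MEIS2 −2.58), beside 3.50% of all features. It called 3 of 6 lower in the kidney medulla than in the adrenal cortex (PBX3 −3.41, MEIS1 −2.33 and MEIS2 −1.91), beside 13.7% of all features. MEIS1 was called lower in the abomasum than in the omasum (−1.92, beside 8.70% of all features) and higher in the lung than in the thyroid (1.77, beside 14.4%). In the trunk against the head limma called 3 of 9 higher, with MEIS1 at 1.78, and 2 lower, with MEIS3 at −0.99. Rostral homeobox genes, which pattern forebrain and midbrain, had 6 of 10 tested members lower in the trunk and none higher, with DLX6 at −1.91, SIX3 at −0.84 and OTX2 at −0.79, and OTX2 was lower in the bridge than in the rostral colliculus (−4.56, SE 0.63). Of 6 retinoic acid genes in the table, whose product switches on HOX genes in the embryo, 5 were higher in the trunk and none lower, led by ALDH1A1 at 3.93. CDX2 and PDX1, of the related ParaHox cluster, were the 2 of 4 called higher there (0.31 and 0.21). DLX6 and SIX3 in the trunk, and CDX2 and PDX1 in the head, lay near the floor (mean log2 CPM −1.21 to −1.14). They passed the level filter through other tissues and had to differ, so their calls are no separate evidence of an axis. OTX2 was the 1 rostral gene tested between bridge and rostral colliculus, where a gene near 0 in the bridge passes through the colliculus. Polycomb and Trithorax regulators, which keep HOX genes off or on, had 2 of 11 higher and 1 lower, and of EVX1 and EVX2, next to clusters A and D, 1 was tested and not called. Of all features 24.8% were higher and 34.4% lower in the trunk.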

How the data were processed

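Expression was measured by RNA sequencing of 33 tissues from 6 goats, 198 libraries in all. Per the labels' protocols, RNA was isolated with a RiboPure kit and strand-specific libraries were sequenced on an Illumina NovaSeq instrument. Per the submitters' processing notes, STAR, StringTie and edgeR were used, with no version given; build and strand setting of the counting are not given in the sources used here. The authors deposited expected counts per feature, of which 37.0% of values above 0 had a fractional part, and these were rounded for the fits. The deposited natural log offsets served as an alternative chosen after seeing the data. Tau is a fraction from the authors' deposited table. A deposited CPM-named table, held for 29662 features and 32 members, was not used, and CPM was computed from the count totals. Gene symbols were matched to RefSeq for 37 members.

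Tissue pairs (15) and states within each tissue were tested with edgeR 4.0.16 (R 4.3.3) by the quasi-likelihood test, with a minimum count of 10 in filterByExpr, TMM scaling and Benjamini-Hochberg adjustment over all features at 0.05. A member or feature at or near 0 in one group passed that filter through the other group, in tissue pairs and between states. DESeq2 1.42.0 was an alternative. Regions and goat means were tested with limma 3.58.1 on log2 CPM with a prior count of 2, over features whose mean reached 1 CPM in some tissue. Tables and figures used pandas 2.3.3, numpy 2.4.6, scipy 1.17.1 and matplotlib 3.10.9. The procedure was tested on simulated data. Samples were grouped by tissue and state as labelled. A comparison of levels between genes after division by length was planned and not made. Intervals and floors (95% level, 3 counts) cover counting error only.

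Goat numbers pair tissues because the same animals gave them; the median correlation of same-goat deviations ran from 0.0455 to 0.279 over the pairs. Alternatives were the goat as a block, other scalings, no count filter, each goat left out and the libraries at odds with their labels left out. Named were, per pair, up to 4 called members per direction by size of change, up to 5 members per tissue by level, every member called between states (or the 3 with the smallest p), and every noncoding HOX feature at 1 CPM; others named were chosen after their values were seen. The members and lists were chosen with earlier results of these data known.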

Additional observations from a re-analysis of the deposited data

Results flagged for a closer look

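In 20 of 100 combinations of tissue and gene class, 1 of 6 libraries stood further from the others than Dixon's 95% criterion (0.625) allows. Chance gives about 1 in 20 only for independent values with a normal distribution. These sums rest on few counts in many tissues, and several combinations share a library. The share due to chance is thus not known, and the criterion served only to pick libraries to describe. Most of the 20 were in libraries of goat 64. In its frontal neocortex groups 1 to 4 summed to 6.13 CPM, groups 5 to 8 to 10.5 and the noncoding features to 7.27. Its rhinencephalon had 5.58 CPM of groups 5 to 8 and 4.61 of noncoding features, and its pineal gland 7.69 of groups 5 to 8. Its adenohypophysis had 9.53 CPM of groups 5 to 8, 4.90 of groups 9 to 13 and 11.9 of noncoding features. Its rostral colliculus had 6.77 CPM of groups 1 to 4, 9.36 of groups 9 to 13 and 6.75 of noncoding features. Goat 64 was also high in groups 5 to 8 in the diaphragm (9.62 CPM) and lowest in groups 1 to 4 in the medulla oblongata (27.3 CPM, against 38.3 to 44.6 in the others).

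Rumen of goat 54 had 29 CPM of groups 1 to 4, 8.33 of groups 9 to 13 and 244 of noncoding features. Its colon had 26.7 CPM of groups 1 to 4, of which HOXB3 made 22.8. Goat 6 had 77.5 CPM of noncoding features in the esophagus and 7.52 in the heart.

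The effect of lactation was compared between tissues by a test of the difference (edgeR), for tissues chosen after their opposite calls were seen, so these values restate that pattern with an error. For HOXB3 it was higher in the kidney medulla than in the ovary by 4.24 log2 units (SE 0.51), in the omasum by 2.95 and in the adrenal cortex by 2.26. For HOXB6 it was higher in the kidney medulla than in the ovary by 7.23 (SE 0.79). In that pair HOXB5 passed as well (5.85, adjusted p = 0.0201), HOXD8 passed in the other direction (−4.29, adjusted p = 0.00285), and 1863 of 21409 features did so in either direction. All ovary values rest on the dry libraries that held little FOXL2.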

How the results depend on the processing

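The 58 calls followed gave 585 alternatives that kept them, 58 that lost them and 0 that changed sign. The 11 calls between states became 17 without the filter, 5 without the libraries at odds with their labels, and 6 to 10 with a goat left out; over tissue means 1 member was called where any count was kept. Without the filter the counts were 1 of 31 members tested for medulla oblongata and bridge and 3 of 30 for bridge and rostral colliculus. They were 4 of 28 for diaphragm and masseter, 7 of 19 for lung and thyroid and 1 of 24 for reticulum and esophagus. Rumen and reticulum gave 1 of 27, abomasum and omasum 7 of 26, colon and duodenum 11 of 31 and mammary gland and neck skin 1 of 34. The share of all features called without the filter is not given here, so these counts and the 17 between states are no result about the members. The cause was not tested. Without the libraries at odds with their labels the counts were 1 for rumen and reticulum, 2 for abomasum and omasum and 3 for mammary gland and neck skin. Abomasum and omasum gave 0 with the deposited offsets and 0 with the goat as a replicate block, which moved no other count by more than 1.5 times. With a goat left out the counts ran from 0 to 1 for rumen and reticulum, abomasum and omasum, and mammary gland and neck skin, and from 2 to 4 for ovary and adrenal cortex. At 2 CPM 95 combinations were left of 166. Depth limits members below 1 CPM.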
